A study of Homo sapiens with 74 samples.

Results

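The comparison is the knockdown of SMARCA4 in HAP1 cells that lack ARID2, set against the same cells with a control knockdown, read by ATAC-seq. It rests on 4 of the 74 labelled samples: 2 libraries labelled ARID2 KO shSMARCA4 and 2 labelled ARID2 KO shControl. They were chosen by the genotype, knockdown and replicate number in their labels. The same knockdown in wild-type HAP1 cells (2 libraries of WT shSMARCA4 and 2 of WT shControl) served to show where ARID2 KO cells differed. Both groups of ARID2 KO cells carried the knockout, and the WT groups did not. HAP1 is a near-haploid human line derived from a chronic myeloid leukaemia. The labels do not name the ARID2 KO clone used for the knockdown, the time after it or the number of cultures. The spread between libraries that the p-values measure may thus be technical. That spread was estimated jointly over the 16 libraries of the 8 knockdown groups, which also include SMARCA4 KO cells and ARID2 knockdowns. ATAC-seq marks accessible DNA by where a transposase can cut and does not measure the SMARCA4 transcript or protein, so the depth of the knockdown could not be checked in either cell line.

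SMARCA4 (BRG1) is an ATPase that drives the BAF (SWI/SNF) chromatin remodelling complexes, which slide or evict nucleosomes and keep enhancers and promoters accessible. ARID1A belongs to canonical BAF and ARID2 to PBAF, the form that also carries PBRM1 and BRD7. SMARCA4 can serve in both forms, so its knockdown in cells without ARID2 acts on cells that already lack a defining subunit of PBAF. The series was made to characterise mutations of BAF subunits and their synthetic lethal pairs, per its title.

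Total counts over the regions were 5355899 and 6654608 in the ARID2 KO shSMARCA4 libraries and 6640185 and 5516931 in the ARID2 KO shControl libraries, at the low end of the range over the 16 knockdown libraries (5355899 to 12432292). A region in the middle of the distribution held 17 and 26 reads with the knockdown, against 25 and 25 with the control. Log2 CPM, counts scaled to library size, was compared over the 72808 regions above the median of the mean level in the 16 knockdown libraries. Over these regions it correlated at r = 0.874 between the 2 ARID2 KO shSMARCA4 libraries and at 0.854 between the 2 ARID2 KO shControl libraries. It correlated at 0.854 between the knockdown and control libraries of replicate 1 and at 0.832 between those of replicate 2. The 10% of regions with the most reads held 46.6% and 41.5% of the counts in the knockdown libraries, against 41.0% and 35.1% in the control libraries. That share was higher with the knockdown within each replicate number, and higher in replicate 1 than in replicate 2 within each group.

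SMARCA4 knockdown in ARID2 KO cells lowered the accessibility of 1765 regions and raised that of 2395. Among these called regions the median log2 fold change of the losses was -1.46, and 1692 of the 1765 were at least 2-fold. The gains had a median of 1.01, and 1244 of the 2395 were at least 2-fold. The median of the mean level in the 16 knockdown libraries was 6.02 CPM for losses and 20.2 CPM for gains. Smaller changes can pass the test at a higher level, so these medians do not compare the depth of losses and gains. The test was edgeR's quasi-likelihood test with the replicate number as a block and a Benjamini-Hochberg adjusted p of 0.05. Of the 145617 regions tested, 2.86% were called, 1.21% lower and 1.64% higher. Both knockdown libraries lay below both control libraries in 1735 of the lower regions, and above both in 2339 of the higher ones. The calls were made on the same libraries, so these counts are no separate evidence. The matching counts over all regions are not given here.

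The counts, and the balance of losses and gains, depended on the fit. Without the block 281 regions were called (0.193%), 201 lower (0.138%) and 80 higher (0.0549%). With offsets fitted by cyclic loess, which remove a trend of fold change with level in each library, 2664 were called (1.83%), of which 1872 were lower (1.29%) and 792 higher (0.544%). The share of losses among the calls was 70.3% with loess, 49.0% with RLE size factors and 31.2% with DESeq2, against 42.4% with TMM factors. With loess 1368 of the lower regions and 778 of the higher regions were called again, and none of the 4160 changed sign. Leaving out knockdown replicate 2 left 535 calls and leaving out control replicate 1 left 446. Without knockdown replicate 1 there were 2063, and without control replicate 2 there were 2553.

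With TMM factors the gains stood mostly among the most accessible regions, and the contrast with the losses was smaller with loess offsets. Regions were ranked by their mean CPM in the 16 knockdown libraries and cut into 4 groups of equal size. The gains numbered 15, 56, 199 and 2125 from the least to the most accessible group. The losses numbered 124, 225, 651 and 765. That mean includes the 2 ARID2 KO shSMARCA4 libraries, so a gain raises and a loss lowers the rank of its own region. By the level in the ARID2 KO shControl libraries alone, the median was 13.0 CPM for gains and 9.03 CPM for losses. It was 5.95 CPM and 12.5 CPM for the gains and losses called with loess offsets. The median log2 fold change over all regions of a group was -0.15, -0.08, -0.01 and 0.25 in the same order, and with loess offsets it was between -0.01 and 0.01 in each. In WT cells the same knockdown gave medians of 0.03, 0.12, 0.08 and 0.00. The share of counts in the most read regions moved with this trend, and its part in the result was not tested. With loess offsets the gains numbered 23, 61, 147 and 561 and the losses 34, 109, 470 and 1259 from the least to the most accessible group.

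**Figure D1:**
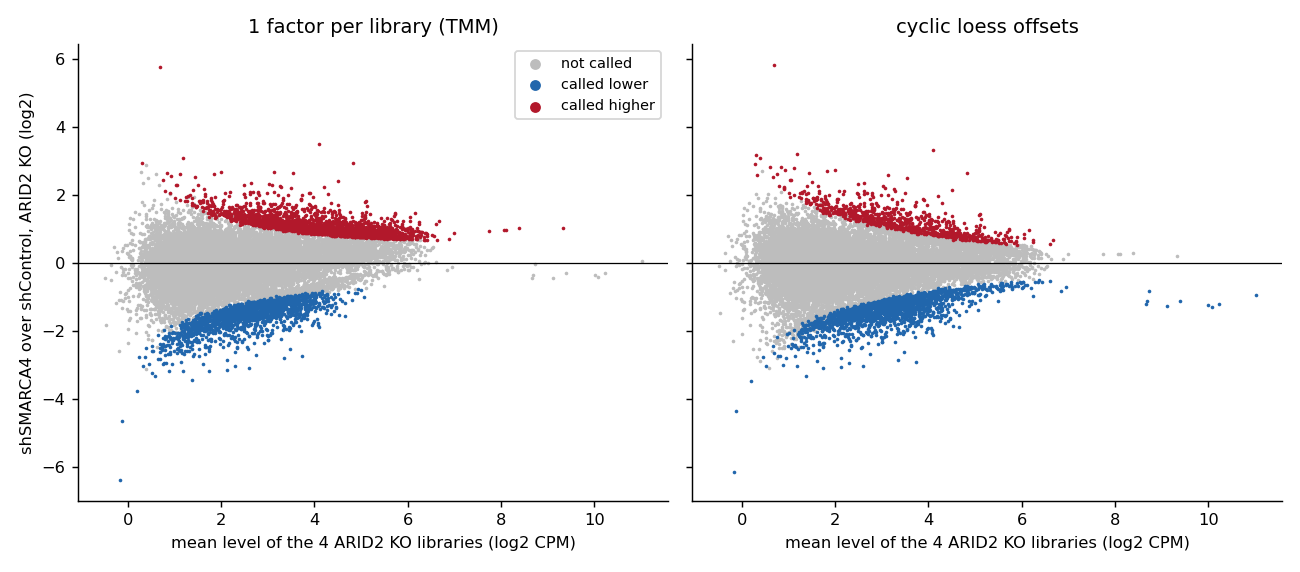
Log2 fold change of ARID2 KO shSMARCA4 over ARID2 KO shControl (vertical axis) against the mean level of the 4 libraries in log2 CPM (horizontal axis), with 1 TMM factor per library on the left and cyclic loess offsets on the right. Each point is a region: the 4678 called in either fit and 15000 drawn from the others. The band of gains at high levels on the left, where 2395 regions were called higher, thins to 792 gains on the right.

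The 12 strongest losses among the regions of above-median level had log2 fold changes of -3.08 to -2.36, or falls of 5.12-fold to 8.45-fold. The deepest lay at chr2:194132121-194132946 (hg19), which had 1.40 and 0.728 CPM in the knockdown libraries, against 10.0 and 7.36 CPM in the control libraries (log2 fold change -3.08, SE 0.45, adjusted p = 2.37e-06 in edgeR). Next came chr12:74412381-74413133, which had 1.40 and 0.583 CPM with the knockdown and 8.10 and 7.36 CPM with the control (-3.03, SE 0.47). In both regions the knockdown libraries stood far below the control libraries. Groups that did not overlap were a condition for choosing all of these regions. The region chr3:845780-846471 had 1.59 and 1.89 CPM with the knockdown and 10.9 and 13.5 CPM with the control (-2.79, SE 0.37). The region chr6:101770359-101771594 had 2.19 and 3.06 CPM with the knockdown and 25.5 and 11.7 CPM with the control (-2.73, SE 0.34). The control libraries of that last region differed by over 2-fold. Of the other 8, chr13:92452422-92453821 was the one with the highest level in both control libraries, with 2.39 and 3.20 CPM in the knockdown libraries against 16.5 and 16.1 CPM in the control libraries (-2.51, SE 0.34).

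The 12 losses recurred with the same knockdown in WT cells and in SMARCA4 KO clones. All 12 were called lower in WT shSMARCA4 against WT shControl, where 7.94% of all regions were lower, and all 12 in SMARCA4 KO clones against WT in the separate knockout libraries, where 15.2% were. Those libraries hold 2 clones each of SMARCA4 KO and ARID1A KO, tested as their mean, and 1 clone of ARID2 KO, with 2 libraries per clone. ARID1A KO lowered 10 of them, against 11.3% of all regions. ARID2 KO lowered 2, chr13:92452422-92453821 and chr8:122962565-122964015, against 1.17% of all regions. In the knockdown libraries, the double knockdown WT shSMARCA4shARID2 lowered all 12 (6.78% of all regions) and SMARCA4 KO shControl lowered 11 (10.7%), both against WT shControl, the control of the WT knockdown too. All 12 losses were also called with loess offsets and without the block. The losses at chr1:237904042-237904737 and chr4:172913009-172913820 were not called without knockdown replicate 2. DESeq2 gave these 2 regions no adjusted p-value, with log2 fold changes of -2.5 and -2.42.

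The 12 strongest gains of above-median level had log2 fold changes of 2.24 to 3.51, or rises of 4.72-fold to 11.4-fold. That level was again the mean of the 4 ARID2 KO libraries, so a gain could pass through its knockdown libraries. In the mean of the control libraries, most of the 12 stood below 3.74 CPM, the median over all regions, down to 1.08 CPM. Those above it were chr4:39666464-39667303, chr1:202427666-202429284 and chr15:45599332-45600401. The folds of the others start from low control levels. The largest gain lay at chr10:121687715-121688416, which had 40.1 and 29.1 CPM in the knockdown libraries, against 4.42 and 1.88 CPM in the control libraries (log2 fold change 3.51, SE 0.31, adjusted p = 1.18e-15 in edgeR). Next came chr4:39666464-39667303, with 45.0 and 35.0 CPM with the knockdown and 5.60 and 4.85 CPM with the control (2.94, SE 0.28). In WT cells both regions were also higher with the knockdown: 39.0 and 21.5 CPM in WT shSMARCA4 against 4.00 and 2.57 CPM in WT shControl at the first, and 58.5 and 30.1 against 5.46 and 4.76 CPM at the second. Their differences between the cell lines were 0.32 (SE 0.45) and -0.14 (SE 0.40) on the log2 scale, and neither passed the test. The region chr1:202427666-202429284 had 41.3 and 35.5 CPM with the knockdown and 9.57 and 5.32 CPM with the control in ARID2 KO cells (2.42, SE 0.27), and its log2 fold change in WT cells was 3.35 (SE 0.29). It was also called higher in the ARID1A KO clones and in the ARID2 KO clone.

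Of the 12 gains, 10 were called higher in WT shSMARCA4, where 2.62% of all regions were, and 11 in SMARCA4 KO clones, where 6.64% were. ARID1A KO raised 2 of them and ARID2 KO raised 1, against 1.89% and 0.728% of all regions. The 2 that were not called in WT shSMARCA4 were chr8:18832199-18832766 and chr1:45994112-45994613. The first had 8.57 and 5.53 CPM with the knockdown and 0.589 and 1.57 CPM with the control in ARID2 KO cells, and 4.26 and 4.63 CPM against 1.85 and 2.96 CPM in WT cells. The second had 7.97 and 5.39 CPM with the knockdown and 1.18 and 1.10 CPM with the control in ARID2 KO cells, and 1.64 and 1.82 CPM against 1.07 and 1.29 CPM in WT cells. The differences between cell lines, 1.79 (SE 0.64) and 1.98 (SE 0.75) on the log2 scale, did not pass the test (adjusted p = 0.368 and 0.39 in edgeR). The gain at chr16:21383754-21384527 had 11.2 and 9.47 CPM with the knockdown and 2.95 and 1.25 CPM with the control, and was the one that SMARCA4 KO clones did not show (log2 fold change 0.21, adjusted p = 0.718 in edgeR). WT shSMARCA4shARID2 and SMARCA4 KO shControl each raised 10 of the 12 against WT shControl (1.86% and 3.16% of all regions). All 12 gains were called with loess offsets and without the block, and the 2 not called in WT cells were not called without control replicate 1. DESeq2 gave those 2 regions no adjusted p-value, with log2 fold changes of 2.69 and 2.52.

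**Figure D2:**
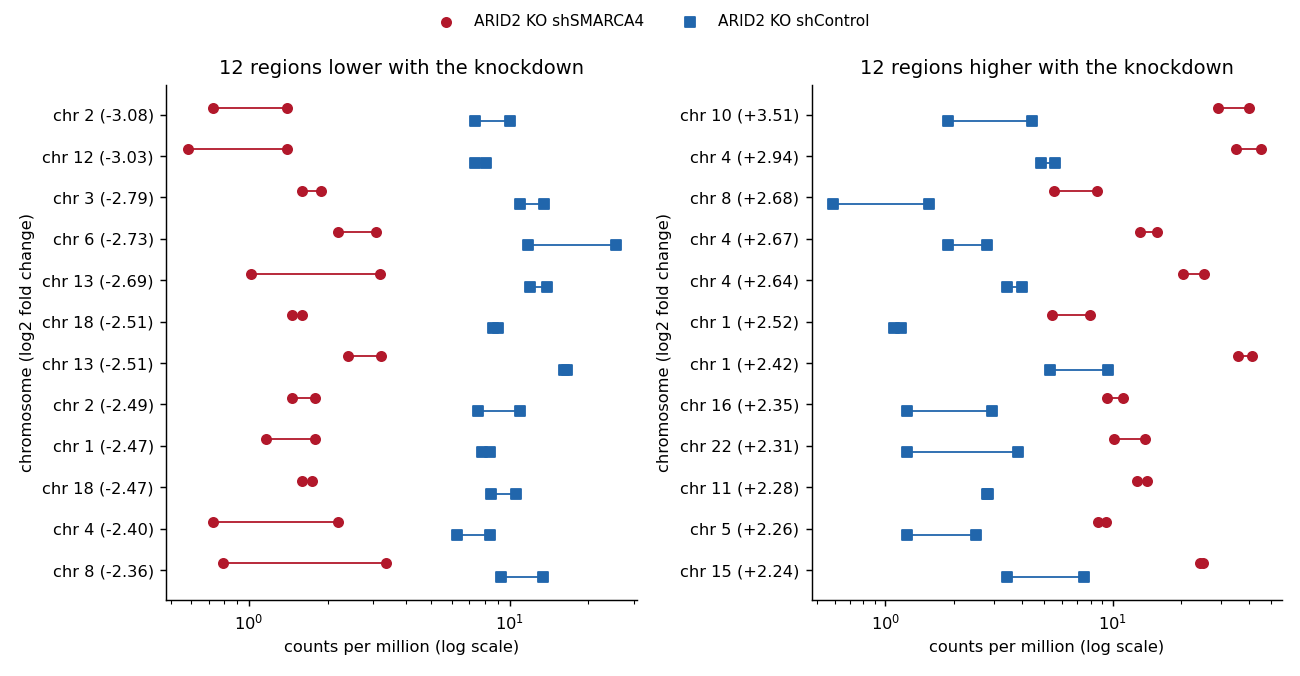
Levels in CPM (horizontal log axis) of the 12 strongest losses (left) and the 12 strongest gains (right), 1 row per region with its chromosome and log2 fold change; circles are the 2 ARID2 KO shSMARCA4 libraries, squares the 2 ARID2 KO shControl libraries, and lines join libraries of a group. The groups do not overlap in any of the 24 rows, as the rule that chose the regions required.

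Among the most accessible called regions the changes were smaller. The 3 losses with the highest mean CPM lay at chr14:86341547-86342649, chr3:120334614-120335504 and chr2:19427771-19428978, with log2 fold changes of -0.87, -1.08 and -0.76. The second had 26.3 and 15.4 CPM with the knockdown and 55.4 and 32.9 CPM with the control. Knockdown replicate 1 stood above knockdown replicate 2 there, as control replicate 1 stood above control replicate 2, and the test without the block did not call any of the 3. All 3 were called lower in SMARCA4 KO clones, with log2 fold changes of -3.51, -2.08 and -2.47. The 3 gains with the highest mean CPM lay on 2 random contigs, named chr7_gl000195_random and chr17_gl000205_random in the files, with log2 fold changes of 1.04, 1.04 and 0.96. The first had 986 and 652 CPM with the knockdown and 533 and 287 CPM with the control, and none of the 3 was called with loess offsets or without the block.

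Losses of the knockdown in ARID2 KO cells were largely losses of the knockdown in WT cells as well. The 2 comparisons share no library. Of the 1765 lower regions, 1381 (78.2%) were also lower in WT shSMARCA4 against WT shControl, which was 11.9% of the 11560 lower there, and 1 was higher. Of all regions 7.94% were lower in WT cells. Of the 2395 higher regions, 619 (25.8%) were also higher in WT cells, or 16.2% of the 3813 there, and none was lower. Of all regions 2.62% were higher in WT cells. With loess offsets the shared part of the ARID2 KO gains was 49.6% (393 regions), and that of the losses was 83.0%. The shared regions were then 8.93% of the 4402 gains and 12.2% of the 12756 losses called in WT cells with loess offsets. Across the 72808 regions of above-median level, the 2 fold changes correlated at r = 0.594 (Spearman's rho 0.508), which describes regions of the same libraries and not replicates. The 2 replicate differences within ARID2 KO cells correlated at r = 0.443 over the same regions. Each of those is a difference of single libraries, while the fold change of a cell line rests on 2 replicates. The 2 values of r are therefore not comparable in size.

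Fewer regions were called in ARID2 KO cells than in WT cells: 4160 in ARID2 KO cells against 15373 (10.6%) in WT cells, and without the block 281 against 8336. WT shSMARCA4 libraries had 10313059 and 5674304 counts and WT shControl libraries 11355471 and 7890257, so replicate 1 of WT cells was sequenced more deeply than any of the 4 ARID2 KO libraries. A direct test of the difference between the 2 knockdown effects called 2 regions (0.00137%), both with the higher log2 fold change in ARID2 KO cells, although 13731 regions had an unadjusted p under 0.05. The number called was 22 with loess offsets, 12 with a block within each cell line, and 0 without a block and with DESeq2, where 7562 and 9227 regions had an unadjusted p under 0.05.

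**Figure D3:**
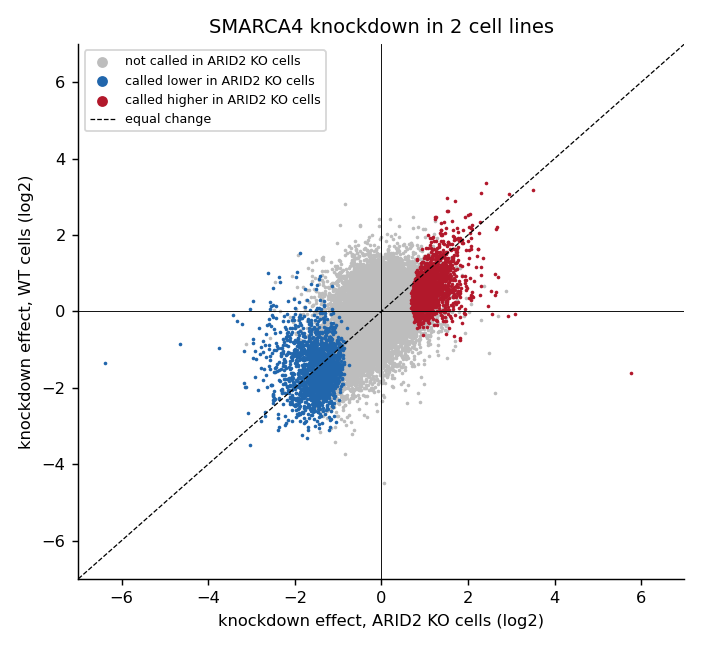
Log2 fold change of the SMARCA4 knockdown in ARID2 KO cells (horizontal axis) and in WT cells (vertical axis), 1 point per region, for the 4678 regions called in ARID2 KO cells in either fit and 15000 of the others. Points called lower in ARID2 KO cells sit mostly in the lower left, where 1381 of 1765 were also called lower in WT cells; the dashed line marks equal change.

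At chr1:221682599-221683228 the level was 4.78 and 3.20 CPM in ARID2 KO shSMARCA4 libraries, against 2.65 and 3.44 CPM in ARID2 KO shControl libraries. In WT cells it was 1.42 and 1.32 CPM with the SMARCA4 knockdown, against 11.2 and 11.3 CPM with the control. The groups overlapped in ARID2 KO cells and stood far apart in WT cells, and the knockdown effects differed by 3.39 on the log2 scale (SE 0.6, adjusted p = 0.0112 in edgeR). At chr4:171226654-171227283 the level was 5.58 and 3.06 CPM with the knockdown and 6.92 and 5.32 CPM with the control in ARID2 KO cells, and 1.42 and 0.662 CPM against 13.2 and 15.7 CPM in WT cells. That difference was 3.2 (SE 0.6, adjusted p = 0.0278 in edgeR). ARID2 KO shControl libraries were already lower than WT shControl libraries at both regions, with log2 fold changes of -1.88 (SE 0.37) and -1.25 (SE 0.34), a comparison that shares its control libraries with the difference. In the ARID2 KO clone of the separate knockout libraries neither region was called (-0.69 and -1.26, adjusted p = 0.541 and 0.148 in edgeR). Neither difference was called when either WT shSMARCA4 library, WT shControl replicate 2, ARID2 KO shSMARCA4 replicate 1 or ARID2 KO shControl replicate 1 was left out, and the second was not called without ARID2 KO shControl replicate 2 either.

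Lists of regions from the knockout libraries, which share no library with the knockdown, showed which kinds of region responded. Of the 22075 regions lower in SMARCA4 KO clones, 1387 were lower with the knockdown in ARID2 KO cells (6.28%, against 1.21% of all regions) and 79 were higher. They held 78.6% of the 1765 losses. Their median log2 fold change was -0.39, and -0.39 and -0.30 in the 2 replicate pairs, beside 0.02 (TMM) over all regions. Of the 9667 regions higher in SMARCA4 KO clones, 965 were higher (9.98%, against 1.64% of all) and 6 were lower, and their median was 0.40 with TMM and 0.17 with loess offsets. Of the 16423 regions lower in ARID1A KO clones, 1126 were lower (6.86%), with a median of -0.36.

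Of the 1701 regions lower in the ARID2 KO clone, 108 were lower with the knockdown (6.35%, against 1.21% of all regions), with a median of -0.24. All 108 came from the 1263 regions that were lower in SMARCA4 KO clones too, whose median was -0.37. Of the 414 regions lower in the ARID2 KO clone and not called in SMARCA4 KO clones, none was called lower with the knockdown in ARID2 KO cells, against 1.21% of all regions, and 5 (1.21%) were called higher, against 1.64% of all, with a median of 0.03. These shares lie near those over all regions. With loess offsets 3 of the 414 were called lower and 2 higher, and the median was -0.13. In WT cells, which have ARID2, 46 of the same 414 regions (11.1%, against 7.94% of all regions) were called lower with the SMARCA4 knockdown, and the median was -0.30. These regions were chosen for being lower in an ARID2 KO clone, and their median log2 difference of ARID2 KO shControl from WT shControl was -0.725. Whether they responded differently in the 2 cell lines was not tested as a group.

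On regions lower in SMARCA4 KO clones the median fold change of the knockdown was smaller in ARID2 KO cells than in WT cells, -0.39 against -0.76. The 2 replicate medians were -0.39 and -0.30 in ARID2 KO cells and -0.72 and -0.67 in WT cells, so they did not overlap. The median level of these regions was 3.99 and 3.64 CPM in ARID2 KO shSMARCA4 libraries, against 5.60 and 4.85 CPM in ARID2 KO shControl libraries. It was 3.49 and 3.81 CPM in WT shSMARCA4 libraries, against 6.63 and 6.56 CPM in WT shControl libraries. The knockdown libraries of both cell lines thus ended at overlapping median levels, while the controls of ARID2 KO cells began lower than those of WT cells. The median log2 difference of ARID2 KO shControl from WT shControl, which shares its control libraries with both knockdown effects, was -0.32 on these regions and -0.01 over all regions. It was 0.15, 0.175, 0.04 and -0.30 from the least to the most accessible of the 4 groups of regions by mean CPM. A lower start was thus shared with the most accessible group only. The difference between the 2 knockdown effects had a median of 0.38 on this list and 0.29 in that group. With loess offsets these medians were 0.37 and 0.01. The part of the level in the lower start was not tested.

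The gap was wider on the 1263 regions lower both in SMARCA4 KO clones and in the ARID2 KO clone, where the median was -0.37 in ARID2 KO cells and -0.98 in WT cells. Their median level was 3.59 and 4.08 CPM in ARID2 KO shSMARCA4 libraries and 5.15 and 5.32 CPM in ARID2 KO shControl libraries. In WT cells it was 4.91 and 4.97 CPM with the knockdown and 10.9 and 10.9 CPM with the control. The list was chosen for being lower in an ARID2 KO clone, and the median log2 difference of ARID2 KO shControl from WT shControl was -0.895. Those control libraries enter the difference between the 2 knockdown effects with the opposite sign. The wider gap is thus not separate from how the list was chosen. The difference between the 2 knockdown effects was above 0 at 84.4% of these regions and at 52.9% of all regions, with medians of 0.57 and 0.05. With loess offsets the medians were 0.52 and 0.02. In the most accessible of the 4 groups of regions by mean CPM, the difference was above 0 at 75.3% of regions. Its median there was 0.29, and 0.01 with loess offsets. The depth of the SMARCA4 knockdown in each cell line was not measured. Neither its part in these gaps nor that of the lower start was tested.

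**Figure D4:**
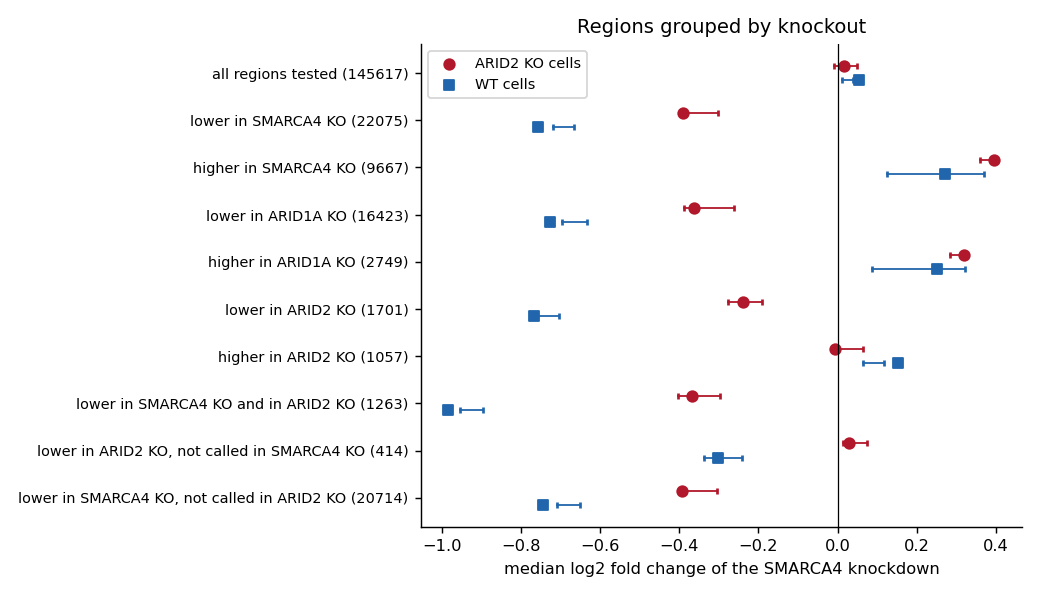
Median log2 fold change of the SMARCA4 knockdown in ARID2 KO cells (circles) and WT cells (squares) over regions grouped by their call in knockout clones, with the number of regions; bars run between the medians of the 2 replicate pairs, taken without the model. On regions lower in SMARCA4 KO the median was -0.39 in ARID2 KO cells and -0.76 in WT cells.

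Losses and gains were spread unevenly over the chromosomes, beside 1.21% of regions lower and 1.64% higher over all of them. On chromosome 19, 128 of 3408 regions were higher (3.76%) and none was lower, and on chromosome 17, 164 of 4133 were higher (3.97%) and 10 were lower. On chromosome 22, 51 of 2018 were higher (2.53%) and 1 was lower. The largest shares of losses lay on chromosome 13, where 99 of 4543 regions were lower (2.18%), and chromosome 4, where 203 of 9637 were (2.11%). With loess offsets the share of losses was 2.13% on chromosome X, 2.11% on 13 and 2.05% on 4, so the order of these chromosomes depended on the scaling. Chromosomes 17, 19 and 22 are rich in genes, and chromosomes 4 and 13 are poor in them. The chromosome medians were 0.24, 0.23 and 0.14 for 17, 19 and 22, and -0.10 each for 4 and 13. With loess offsets they were 0.15, 0.11, 0.08, -0.08 and -0.07, so the order of these 2 sets held at a smaller size, and on chromosome 19 the calls became 8 lower and 26 higher. In WT cells the same medians were 0.27, 0.30, 0.29, -0.09 and -0.09.

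**Figure D5:**
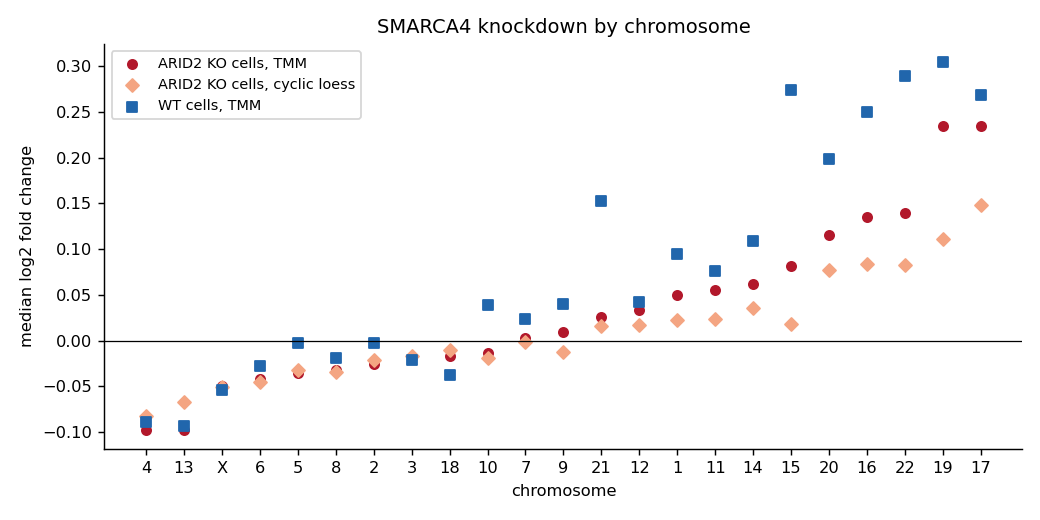
Median log2 fold change of the SMARCA4 knockdown over the regions of each chromosome with at least 20 regions, ordered by the value in ARID2 KO cells, for ARID2 KO cells with TMM factors (circles), ARID2 KO cells with cyclic loess offsets (diamonds) and WT cells with TMM factors (squares). Chromosomes 17 and 19 stand highest in ARID2 KO cells with TMM, at 0.24 and 0.23, and chromosomes 4 and 13 lowest.

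In windows of 5 Mb, the medians of 588 windows ran between -0.51 and 0.40. The lowest were on chromosome X from 140 to 145 Mb (-0.51), chromosome 14 from 80 to 85 Mb (-0.43) and chromosome 12 from 70 to 75 Mb (-0.40). The highest were on chromosome 17 from 40 to 45 Mb (0.40), chromosome 16 from 65 to 70 Mb (0.39) and chromosome 17 from 15 to 20 Mb (0.35). With loess offsets the medians were -0.43, -0.32 and -0.34 for the lowest and 0.26, 0.26 and 0.22 for the highest, in the same order. The X window's model median lay outside its 2 replicate medians of -0.46 and -0.26. The same held for the chromosome 14 window (-0.37 and -0.30) and the chromosome 12 window (-0.36 and -0.26). It also held for the chromosome 17 window from 15 to 20 Mb (0.271 and 0.275). Replicate medians were taken without the model, on log2 CPM with 0.5 added. The X window held 7 losses and no gain among 133 regions, and the chromosome 17 window from 40 to 45 Mb held 21 gains and no loss among 344, beside 1.21% of all regions lower and 1.64% higher. In the same order of these 6 windows, the WT medians were -0.53, -0.47, -0.29, 0.39, 0.41 and 0.34, of the same sign in each.

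Lost and gained regions had median widths of 802 and 798 base pairs, against 622 over all regions, and of 954 and 707 base pairs when called with loess offsets. With regions ranked by width and cut into 4 groups of equal size, the narrowest group held 66 losses and 62 gains, and the widest 982 losses and 1279 gains. With loess offsets the widest group held 1330 losses and 317 gains, so the likeness of losses and gains in width depended on the scaling. Wider regions hold more reads, and level and width were not separated here. The median distance to the nearest other region was 6.04 kb for losses and 4.84 kb for gains, beside 5.53 kb over all regions.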

How the data were processed

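ATAC-seq libraries of HAP1 cells were made with digitonin and a transposase, per the labels. The authors deposited raw counts for every region in hg19, with no scaling for depth. Tools given in the submitters' processing notes are MACS2 2.1.1.20160309, Picard 1.118 and Bowtie2 2.2.4. How regions were merged and reads counted, and whether starts count from 0 or 1, is not given in the sources used here, so coordinates stand as the files give them. The count tables hold 2 columns with no labelled sample, which were not used, and a table of normalized accessibility was not used here.

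All 16 libraries of the knockdown table (8 groups of 2) were fitted with edgeR 4.0.16 in R 4.3.3 (quasi-likelihood test), TMM factors, the default expression filter, and group and replicate number as terms (7 residual degrees of freedom, 145617 of 145730 regions). The difference between cell lines was an interaction in that fit. Tests are 2-sided, with Benjamini-Hochberg adjustment over all regions and a threshold of 0.05. The block was used because the comparison is defined with it. The labels do not say what a number stands for. Deviations of same-numbered libraries from their group means correlated at 0.36 for the ARID2 KO groups and over 0.1 in 25 of 28 pairs of groups (0.0626 to 0.445). CPM are scaled by the TMM factors. Each SE is the absolute log2 fold change divided by the square root of the test's F statistic, so it is approximate. Lists came from 48 knockout libraries in a fit without the block, as the mean of a gene's clones against WT (145530 regions, 24 residual degrees of freedom). DESeq2 1.42.0 and the loess function of limma 3.58.1 served as alternatives. The scripts were tested on simulated data.

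Named regions are the 12 lower and 12 higher with the largest change among those called, above the median level and with non-overlapping groups, the 3 most accessible called in each direction, the called differences between cell lines, and the 3 lowest and 3 highest windows of 5 Mb with at least 20 regions. The comparison and lists were chosen with earlier results of these data known. No annotation of hg19 was at hand, so regions carry no gene names and no sequence is shown. Reads carry no molecular identifiers.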

Additional observations from a re-analysis of the deposited data

Results flagged for a closer look

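The effect of the SMARCA4 knockdown differed between ARID2 KO and WT cells at 2 regions by a test of the difference itself in edgeR, with the replicate block. At chr1:221682599-221683228 the log2 fold change was 0.36 (SE 0.42) in ARID2 KO cells and -3.03 (SE 0.41) in WT cells, a difference of 3.39. At chr4:171226654-171227283 it was -0.54 (SE 0.39) in ARID2 KO cells and -3.74 (SE 0.43) in WT cells, a difference of 3.2. The counts behind the ARID2 KO values were 24 and 22 with the knockdown and 18 and 22 with the control at the first region, and 28 and 21 against 47 and 34 at the second.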

How the results depend on the processing

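For SMARCA4 knockdown in ARID2 KO cells the 4160 calls became 281 with no replicate block (201 lower, 80 higher), 2664 with cyclic loess offsets (792 higher) and 1086 with both, an alternative chosen after seeing the data (844 lower, 242 higher). Fitting the 4 ARID2 KO libraries alone with the replicate block gave 7536 (3062 lower, 4474 higher), DESeq2 gave 1103 lower, and a 2-fold minimum gave 1244 higher. Leaving out 1 library gave 446 to 2553 called, 176 to 1396 lower and 270 to 1157 higher. For the difference between cell lines the 2 calls, both higher, became 0 with no replicate block, 0 with DESeq2, 0 with loess and no block (7562, 9227 and 9287 at an unadjusted p of 0.05), 12 with a replicate block within each cell line (12 higher) and 22 with loess (13 lower, 9 higher), and leaving out 1 library gave 0 to 9 called, 0 to 2 lower and 0 to 8 higher. The causes of these shifts were not tested. DESeq2 had 31.2% of its calls lower, against 42.4% in edgeR.

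Lists cut at 2-fold moved the medians to -0.468 (lower in SMARCA4 KO), 0.231 (higher in SMARCA4 KO), 0.129 (higher in ARID1A KO), -0.302 (lower in ARID2 KO), -0.058 (lower in ARID2 KO, not called in SMARCA4 KO) and -0.469 (lower in SMARCA4 KO, not called in ARID2 KO). Lists from the knockout fit with the replicate block kept their medians within the spread of the replicates. Over the 32 named regions and the alternatives run for each, 436 of 485 values kept their direction and side of the threshold. The other 49 kept the direction and lost the call, or got no adjusted p-value from DESeq2, and none changed sign. Depth (17 to 26 reads in the median region) and 2 libraries a group limit the precision of each value.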
